A study of Oreochromis niloticus with 6 samples.

Results

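Ribosomal proteins were taken as the loci that the deposited expression table annotates with the KEGG ribosome pathway and whose mean over the 6 libraries was at least 1 FPKM. FPKM is a fragment count scaled by transcript length and by the number of mapped fragments, so levels can be compared between genes of different length. Of 31872 loci in the table, 85 carried the annotation and 81 of these passed the minimum. By symbol, or by KEGG orthology for S11, S17 and S27 alone, 78 of the 81 were counted as cytosolic ribosomal proteins, 48 of the large and 30 of the small subunit. No mitochondrial ribosomal protein (mrpl or mrps symbol) carried the annotation, and the remaining 3 loci were not ribosomal proteins by their names.

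The ribosome is built from a small subunit, which reads the mRNA, and a large subunit, which joins the amino acids, each an RNA core with proteins on its surface. Ribosomal protein mRNAs are among the most abundant mRNAs of a cell, and each protein is needed in equal number with most of the others. In vertebrates these mRNAs begin with a pyrimidine tract through which mTOR signaling sets how much of the mRNA is translated, so mRNA level and protein synthesis can part, and protein synthesis was not measured here. Mitochondria hold a separate ribosome whose proteins are encoded by other nuclear genes.

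The libraries were made from liver of GIFT (Genetically Improved Farmed Tilapia), a selectively bred strain of Nile tilapia (*Oreochromis niloticus*), with 3 libraries in each group. The control group (CG) was kept at a dissolved oxygen (DO) of 5 mg/L and the hypoxia group (HG) at 0.7 to 0.8 mg/L by the labels, for which nitrogen was bubbled into the water. The fish of both groups were of the same stock, were fasted before the start, and at 96 h were anaesthetised with MS-222 and killed by rapid cooling before the liver was taken. The study's methods give a lower DO for HG and more fish in each tank than the labels. There that DO was chosen as the median lethal level over 96 h, so the fish taken at 96 h were survivors. The methods had 3 tanks in each group, with 3 fish taken from each for this part. Neither source says whether a library is 1 fish or a pool. The p-values therefore measure the spread between these libraries, which may in part be technical.

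The files hold FPKM and no read counts, and the numbers of mapped reads that the study gives for each library were not used here. The summed FPKM ran from 459912 to 493870 per library. egln3 (MSTRG.13905), which low oxygen raises in other vertebrates, stood at 375, 212 and 239 FPKM in the libraries labelled CG and at 2.61, 1.81 and 1.86 FPKM in those labelled HG. p4ha1b (MSTRG.951), also a target of the hypoxia response, stood at 29.7, 40.5 and 31.8 FPKM in CG and at 0.394, 0.338 and 0.433 FPKM in HG. The groups are named by their labels throughout. The sign of every value for HG against CG rests on these labels, which were not tested. Several summed levels of cell type markers differed between the groups. The 5 loci listed as bile duct markers summed to 600 to 697 FPKM in CG and 214 to 286 FPKM in HG. The highest of them was krt8, a keratin that hepatocytes also make, so this sum does not measure bile duct alone. Their median log2 fold change was -1.35. The 4 exocrine pancreas markers summed to 134 to 324 and 28.3 to 64.8 FPKM, and the 5 endothelium and stroma markers to 20.2 to 27.4 and 7.81 to 9.18 FPKM. The 12 hepatocyte markers summed to 32318 to 43560 FPKM in CG and 23150 to 28666 FPKM in HG, while their median log2 fold change was 0.38 with 1 called higher and 1 lower. The 3 erythrocyte markers summed to 12.6 to 36.5 and 26.3 to 44.9 FPKM, and the 8 leukocyte markers to 1785 to 2152 and 1811 to 3162 FPKM. No marker was at 0 in all 6 libraries. Their part in the values below was not tested, and in whole tissue fewer cells of a type and less RNA per cell cannot be told apart.

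The cytosolic ribosomal proteins were abundant in every library. Their mean level over the 6 libraries had a median of 778 FPKM, against 3.35 FPKM for all tested loci, and 73 of the 78 were above 100 FPKM, 56 above 500 FPKM and 22 above 1000 FPKM. Cytosolic ribosomal proteins made up 29 of the 100 loci with the highest mean, and 63 of the top 200. The 3 highest all belong to the small subunit. rps14, a protein of the platform that contacts the mRNA, had 2508, 2928 and 2373 FPKM in CG and 2607, 2004 and 2909 FPKM in HG. rps27a, which is made as a fusion of ubiquitin and ribosomal protein S27a, had 2601, 2864 and 2188 FPKM in CG and 2434, 2098 and 2652 FPKM in HG. rps15 had 1807, 2023 and 1834 FPKM in CG and 1885, 1748 and 2236 FPKM in HG. For all 3 the groups overlapped widely, with log2 fold changes of -0.07, -0.09 and 0.05 for HG against CG. The 3 lowest members were rpl7l1, a paralog of rpl7, at a mean of 9.62 FPKM, zgc:136826, assigned to S27 by its KEGG orthology, at 44.1 FPKM, and rpl22l1, a paralog of rpl22, at 47.5 FPKM.

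The 78 loci covered 72 of 79 listed cytosolic proteins of the vertebrate ribosome, with the paralogs rpl22l1, rpl7l1 and rplp2l beside them. The 79 leave out RACK1 (gnb2l1), which is read below with the ribosome-associated proteins. rps13, rps28, rpl34, rpl35a, rpl37a, rpl39 and rpl41 were not analysed here. S11, S17 and S27 are counted through si:dkey-159f12.2, zgc:114188 and zgc:136826, which were assigned by KEGG orthology alone. This orthology does not separate paralogs, since rpl22l1 shares its entry with rpl22 and rpl7l1 with rpl7.

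Taken as a sum, the cytosolic ribosomal proteins differed more between the libraries of one group than between the groups. Their summed level was 55069, 72493 and 55392 FPKM in CG-1 to CG-3 and 68731, 53206 and 71667 FPKM in HG-1 to HG-3. CG-2, HG-1 and HG-3 were therefore high and CG-1, CG-3 and HG-2 low, and the groups overlapped over nearly their whole range. As a share of all FPKM in the library this was 11.6%, 14.7% and 11.5% in CG and 14.5%, 11.6% and 15.1% in HG, or 12.6% ± 1.81 against 13.7% ± 1.88 (SD, n = 3). The large and the small subunit moved together: the ratio of their summed levels stayed between 1.05 and 1.18, at 1.10 ± 0.059 in CG and 1.17 ± 0.020 in HG (SD, n = 3).

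**Figure D1:**
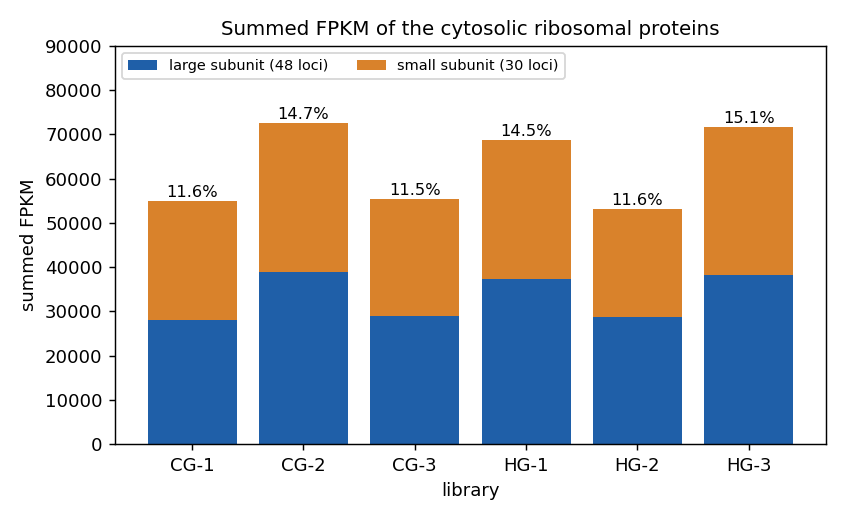
Summed FPKM of the 78 cytosolic ribosomal proteins in each library, split into the 48 loci of the large subunit (blue) and the 30 of the small subunit (orange). The percentage above each bar is the share of all FPKM of that library. CG-2, HG-1 and HG-3 lie at 14.5% to 15.1% and CG-1, CG-3 and HG-2 at 11.5% to 11.6%, so each group holds both high and low libraries.

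This split between libraries ran through most members. On the log2(FPKM + 1) scale, the median deviation of the 78 members from their own mean over the 6 libraries was -0.23, 0.22 and -0.18 in CG-1 to CG-3 and 0.16, -0.18 and 0.21 in HG-1 to HG-3. Over all tested loci the same medians were 0.14, 0.04, 0.02, -0.17, -0.07 and -0.02. The ribosomal proteins thus did not follow the median of all loci in their library. Part of the split was shared by related lists. For the translation factors read below the medians were -0.07, 0.04, -0.18, 0.07, -0.06 and 0.19, with the same signs. For the mitochondrial ribosomal proteins they were 0.14, 0.30, -0.01, -0.28, -0.27 and 0.07, highest in CG-2 and HG-3 within their groups. In CG-2, 73 of the 78 members were above their own mean over the 6 libraries, and in CG-3 8 were. CG-2 held the highest of the 3 CG values for 71 of the 78 members, against 27.4% of all tested loci. HG-2 held the lowest of the 3 HG values for 73 of the 78, against 33.0% of all tested loci. Of the 66 mitochondrial ribosomal proteins, CG-2 held the highest CG value for 42 and HG-2 the lowest HG value for 29. HG-3 held their highest HG value for 55, against 43.4% of all tested loci. The range of the library medians within a group, 0.45 in CG and 0.39 in HG, exceeded the median log2 fold change between the groups given below. These are descriptions of the 6 libraries and carry no test.

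**Figure D2:**
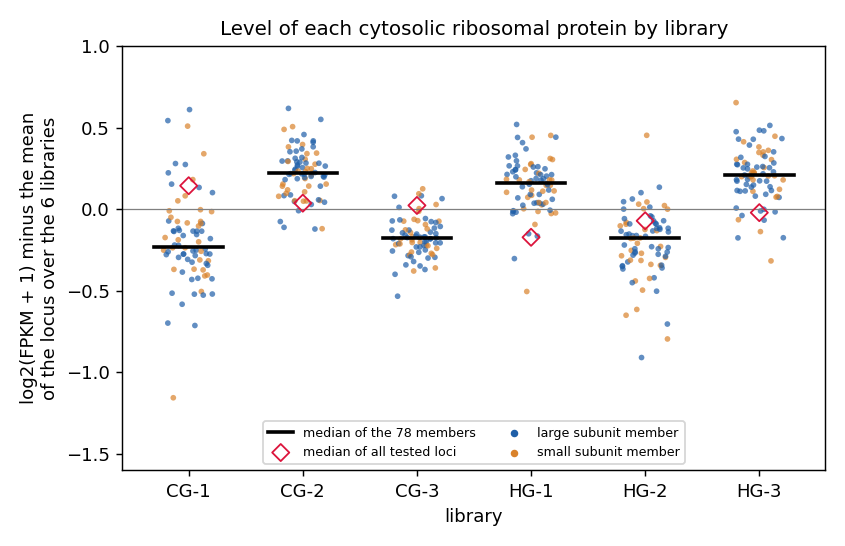
Deviation of each of the 78 cytosolic ribosomal proteins from its own mean over the 6 libraries, in log2(FPKM + 1), by library. Points are members (blue for the large, orange for the small subunit), black bars their median and red diamonds the median of all 16423 tested loci. The members sit together above 0 in CG-2, HG-1 and HG-3 and below 0 in CG-1, CG-3 and HG-2, while the diamonds lie between -0.17 and 0.14.

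Whether the level of these mRNAs differed between HG and CG as labelled was tested for each locus in limma on log2(FPKM + 1). The p-values were adjusted over all 16423 tested loci, with a call at an adjusted p under 0.05. None of the 78 cytosolic ribosomal proteins passed (0 higher and 0 lower), where 20.4% of all tested loci passed, 8.27% higher and 12.1% lower in HG. At an unadjusted p under 0.05, 2 of the 78 and 36.6% of all tested loci passed. A linear model in the style of Ballgown, the tool of the study's methods, was fitted as well. Beside the group it holds a library term, the sum of a library's log2(FPKM + 1) values under their upper quartile. It also called 0 of the 78, with 1 at an unadjusted p under 0.05, but it called only 2 of the 16423 loci. The smallest adjusted p among the 78 was 0.102, and 54 of them had an adjusted p over 0.5. With libraries rescaled by the median of ratios, the share of calls over all tested loci that were higher in HG went from 40.6% to 53.3%, and still 0 of the 78 were called.

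The median log2 fold change of the 78 members was 0.13 for HG against CG, with quartiles of -0.00 and 0.22, beside -0.14 over all tested loci. The large subunit had a median of 0.14 and the small subunit of 0.12. The estimate was above 0 for 56 members and below 0 for 22. In the Ballgown-style model, where it is adjusted for the library term, it was above 0 for 27 with a median of -0.07. That is not the plain difference between the group means, so the direction depended on the model. The estimate was above 0 for 70 by the median of ratios or the upper quartile, and for 46 to 68 with each library left out. The median was above 0 in every other fit except that scaled to the median of these members. The size of the median varied with the library left out: it was 0.03, 0.25 and 0.05 with CG-1, CG-2 or CG-3 left out in turn, and 0.06, 0.22 and 0.05 with HG-1, HG-2 or HG-3 left out. Rescaling by the median of ratios moved the median of all loci by more than 0.1, to 0.01, and that of the members to 0.34, so that the distance of the members from all loci was 0.33 in place of 0.27. This distance was 0.01 in the Ballgown-style model, 0.12 with quantile normalization and 0.16 with no minimum level. With 1 library left out it was 0.14 without CG-1, 0.41 without CG-2, 0.21 without CG-3, 0.16 without HG-1, 0.39 without HG-2 and 0.23 without HG-3, so its size rested on single libraries.

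Standard errors ran from 0.17 to 0.37 with a median of 0.23, and 72 of the 78 estimates lay within 0.5 of 0. The 95% interval stayed within a 2-fold change in both directions for 67 of the 78 (85.9%), against 31.3% of all tested loci. This number was 41 and 38 with libraries rescaled by the median of ratios and by the upper quartile. In the remaining 11 members the interval reached a 2-fold change, 5 downward and 6 upward. CG and HG values were fully separated for 6 of the 78 members (7.69%), against 43.5% of all tested loci. The pooled SD within groups on the log2 scale had a median of 0.27 for the members and of 0.38 for the 436 other loci above 100 FPKM. Of those 436 loci 40.6% were called.

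**Figure D3:**
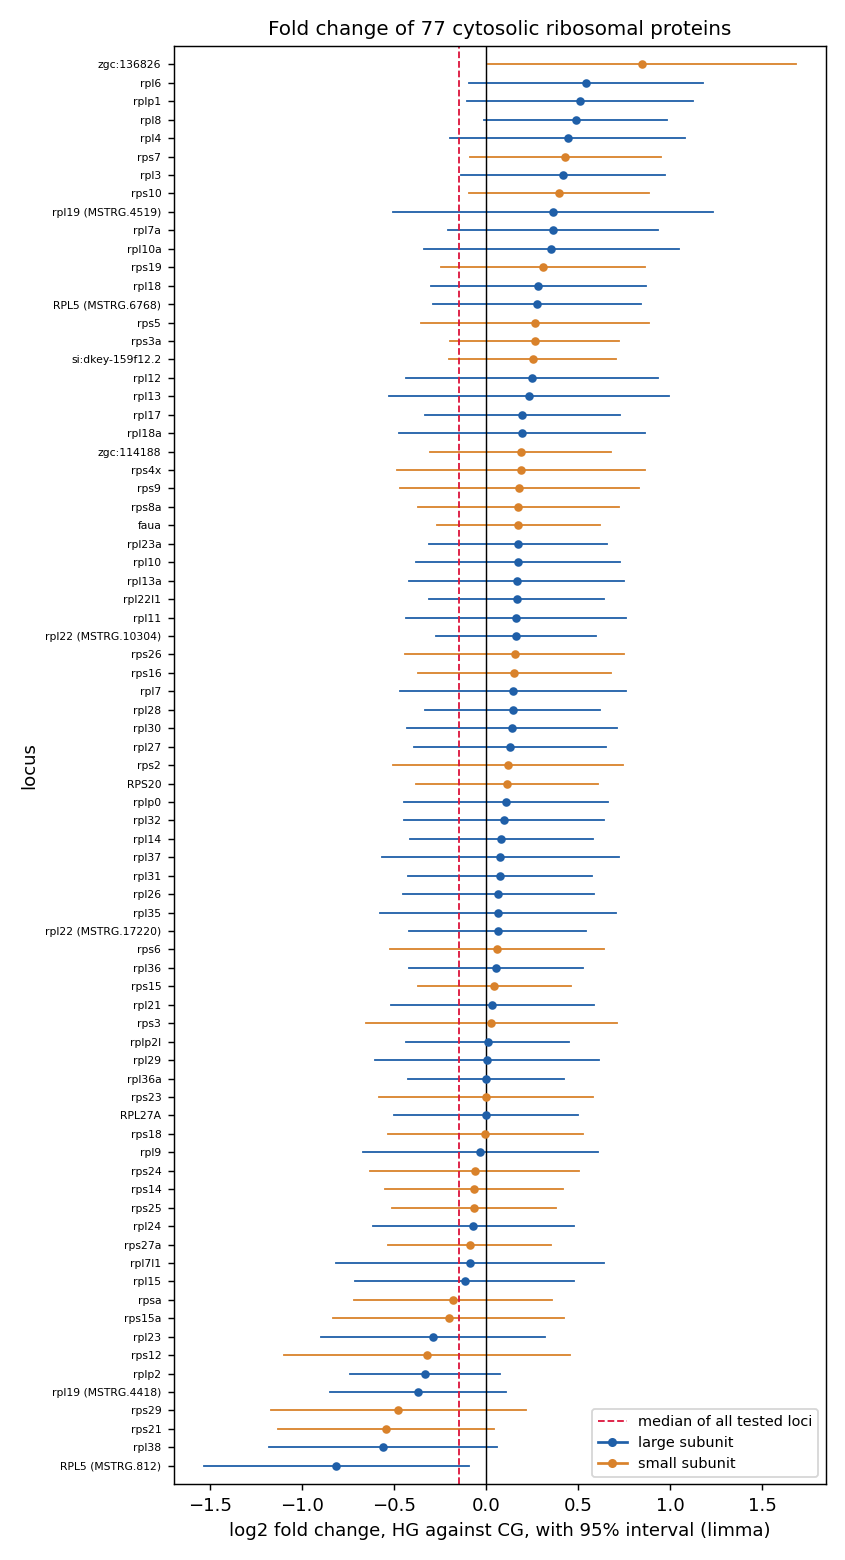
log2 fold change (HG against CG) of 77 of the 78 cytosolic ribosomal proteins in limma, each with its 95% interval, ordered by size (blue for the large, orange for the small subunit). The dashed line is the median of all tested loci, -0.14. The estimates run from -0.82 to 0.85, most lie within 0.5 of 0, and no member passed an adjusted p of 0.05. The side of 0 on which the bulk lies changes in the Ballgown-style model.

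The members at either end of this range were few. Of the 3 with a log2 fold change of at least 0.5 above 0, zgc:136826 (MSTRG.3146), the locus assigned to S27, had 17.9, 37.7 and 41.1 FPKM in CG and 46.2, 56.5 and 65.1 FPKM in HG. The groups did not overlap, yet CG-1 lay far under the other CG libraries, and the log2 fold change of 0.85 had a standard error of 0.35 and an adjusted p of 0.132 (limma). rpl6 (MSTRG.13708), of the large subunit, had 504, 834 and 739 FPKM in CG and 1085, 778 and 1141 FPKM in HG. Its groups overlapped, since CG-2 exceeded HG-2, and its log2 fold change was 0.54 (adjusted p = 0.192, limma). The stalk protein rplp1 (MSTRG.6688) had 319.7, 476 and 424 FPKM in CG and 619, 443 and 684 FPKM in HG, again with overlap between CG-2 and HG-2 and a log2 fold change of 0.51 (adjusted p = 0.2, limma).

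At the other end, 1 of the 2 RPL5 loci (MSTRG.812) had 75.7, 79.8 and 54.1 FPKM in CG and 41.7, 27.1 and 51.3 FPKM in HG. In mammals the L5 protein binds 5S rRNA together with L11 and, outside the ribosome, the p53 regulator MDM2. All HG libraries were below all CG libraries at this locus, and its log2 fold change was -0.82 (standard error 0.30, 95% interval -1.54 to -0.10, adjusted p = 0.102, limma), the smallest adjusted p of the 78. rpl38 (MSTRG.16227), a large subunit protein that in the mouse is needed for patterning of the axial skeleton, had 1112, 1341 and 923 FPKM in CG and 941, 562 and 811 FPKM in HG, with CG-3 under HG-1 (log2 fold change -0.56, adjusted p = 0.172). rps21 (MSTRG.8475), of the small subunit, had 920.3, 1021 and 721 FPKM in CG and 714, 463 and 661 FPKM in HG, and here the groups did not overlap, although CG-3 and HG-1 nearly met (log2 fold change -0.54, adjusted p = 0.163). None of these 6 members passed the test, so their order within the list is a description. Each library was also scaled to the median of the 78 members, an alternative added after seeing the data. The lowest adjusted p were then 0.0531 for rpl38, 0.0606 for the RPL5 locus and 0.0610 for rps21 (limma). Again none passed, where 13.1% of all tested loci did in this fit.

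The other members without overlap between the groups were rpl8, 1 of the rpl19 loci and rplp2, named because such members were few. rpl8 (MSTRG.14335), which lies near the site where peptide bonds are formed, had 849, 954 and 813 FPKM in CG and 1286, 981 and 1442 FPKM in HG (log2 fold change 0.49, standard error 0.21, adjusted p = 0.143, limma). HG-2 was the lowest of the HG libraries and only just above CG-2. rplp2 (MSTRG.16568) had 1222, 1115 and 1070.2 FPKM in CG and 902, 842 and 965 FPKM in HG, the smallest spread within groups of all 78 members (pooled SD 0.0979), and its log2 fold change was -0.33 (standard error 0.17, adjusted p = 0.21, limma).

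The widest spread between libraries of a group was that of the main rpl19 locus (MSTRG.4519), with 439, 965 and 603 FPKM in CG and 978, 558 and 1001 FPKM in HG and a pooled SD of 0.526. Its values were high in CG-2, HG-1 and HG-3, as for the sum of all members. zgc:136826 (0.482), rps12 (0.459), rpl13 (0.434) and rpl7l1 (0.407) followed. rps12 did not follow the common split: it had 1490.2, 1165 and 923 FPKM in CG and 1433, 684 and 840.3 FPKM in HG, high in CG-1 and HG-1. rpl13 had 271, 508 and 337 FPKM in CG and 469, 307 and 525 FPKM in HG and did follow it. rpl7l1 had 14.8, 8.79 and 6.83 FPKM in CG and 8.30, 7.80 and 11.2 FPKM in HG, with CG-1 above the rest. At the other end, 19 of the 78 members had a pooled SD under 0.2.

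The stalk of the large subunit, which recruits the elongation factors, is formed by P0, P1 and P2. rplp0 had 701, 999.9 and 813 FPKM in CG and 990.4, 714 and 1008 FPKM in HG, low in CG-1 and HG-2 and without a difference that passed the test (log2 fold change 0.11, 95% interval -0.45 to 0.66). The stalk members thus had estimates of 0.51 for rplp1, 0.11 for rplp0, 0.01 for rplp2l and -0.33 for rplp2, and no difference between them was tested beyond the P2 pair below. faua, a fusion of a ubiquitin-like protein and S30, had 661, 709 and 571 FPKM in CG and 704, 686 and 798 FPKM in HG (log2 fold change 0.18, adjusted p = 0.535), and rps27a had a log2 fold change of -0.09 (adjusted p = 0.763).

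Members at known working sites of the ribosome were also read, chosen for their roles after the values had been seen. In the small subunit, rps6, the substrate of S6 kinase downstream of mTOR, had 344, 476 and 337 FPKM in CG and 439.9, 316 and 447 FPKM in HG (log2 fold change 0.06, 95% interval -0.52 to 0.64). rps3 and rps2, which line the channel through which the mRNA enters, had log2 fold changes of 0.03 (-0.65 to 0.71) and 0.12 (-0.50 to 0.74). rps23, at the decoding centre, had 626, 981 and 675 FPKM in CG and 783, 625 and 844 FPKM in HG and a log2 fold change of -0.00 (-0.58 to 0.58), the nearest to 0 of these. In each of these the higher values were those of CG-2, HG-1 and HG-3. In the large subunit, rpl3, close to the site of peptide bond formation, had 705, 1173 and 810.0 FPKM in CG and 1172, 1111 and 1232 FPKM in HG (log2 fold change 0.42, -0.14 to 0.97), with CG-2 as high as HG-1. rpl4, which lines the exit tunnel, had 343, 571 and 388 FPKM in CG and 670.4, 464 and 616 FPKM in HG (log2 fold change 0.44, -0.19 to 1.08), and rpl23a, at the tunnel exit, had a log2 fold change of 0.17 (-0.31 to 0.66). rpl11, the partner of L5 on 5S rRNA, had 584, 902 and 654 FPKM in CG and 859.9, 627 and 898 FPKM in HG (log2 fold change 0.16, -0.43 to 0.76), and rpl10, which is added late in assembly, had a log2 fold change of 0.17 (-0.38 to 0.73). None of these passed the test, and the intervals of rps6, rps3, rps2, rps23, rpl3, rpl23a, rpl11 and rpl10 stayed within a 2-fold change in both directions.

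Some proteins were represented by a pair of loci, which allows the lesser copy to be read as a share of the pair within each library. Copies of one name may share reads in the authors' assignment, so these shares are uncertain. The lesser RPL5 locus (MSTRG.812) made up 36.3%, 29.4% and 28.4% of the summed FPKM of both loci in CG and 17.4%, 14.7% and 20.4% in HG. This was 31.4% ± 4.28 in CG and 17.5% ± 2.83 in HG (SD, n = 3), without overlap between the groups. The log2 ratio of the copies differed by -1.09, with an exact two-sided permutation p of 0.1, the smallest that 3 libraries against 3 allow, and 0.4 after adjustment over the 6 pairs. The main RPL5 locus (MSTRG.6768) itself had 133, 192 and 136 FPKM in CG and 198, 157 and 200.1 FPKM in HG (log2 fold change 0.28, adjusted p = 0.44, limma), so the share reflects a lower value at the lesser locus beside an estimate above 0 at the main locus, neither of which passed the test.

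The lesser rpl19 locus (MSTRG.4418) had 113, 115 and 102 FPKM in CG and 94.6, 75.4 and 85.3 FPKM in HG, without overlap (log2 fold change -0.37, adjusted p = 0.228, limma). Its share of the pair was 20.4%, 10.7% and 14.5% in CG and 8.82%, 11.9% and 7.85% in HG, which overlapped between CG-2 and HG-2 (exact permutation p = 0.2, adjusted 0.4). rplp2l, with 462, 578 and 479.5 FPKM in CG and 502, 528 and 492 FPKM in HG, made up 27.4%, 34.2% and 30.9% of the P2 pair in CG and 35.8%, 38.5% and 33.8% in HG (exact permutation p = 0.2, adjusted 0.4). The group means of the other pairs differed by less than the SD within CG. The lesser rpl22 locus (MSTRG.17220) made up 16.0% ± 2.08 and 15.0% ± 0.380 of its pair, rpl22l1 made up 6.51% ± 0.370 and 6.55% ± 0.464 beside the main rpl22 locus, and rpl7l1 made up 1.28% ± 0.805 and 0.977% ± 0.157 beside rpl7, each in CG and HG (SD, n = 3). For these 3 pairs the exact permutation p were 0.6, 0.9 and 0.8.

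**Figure D4:**
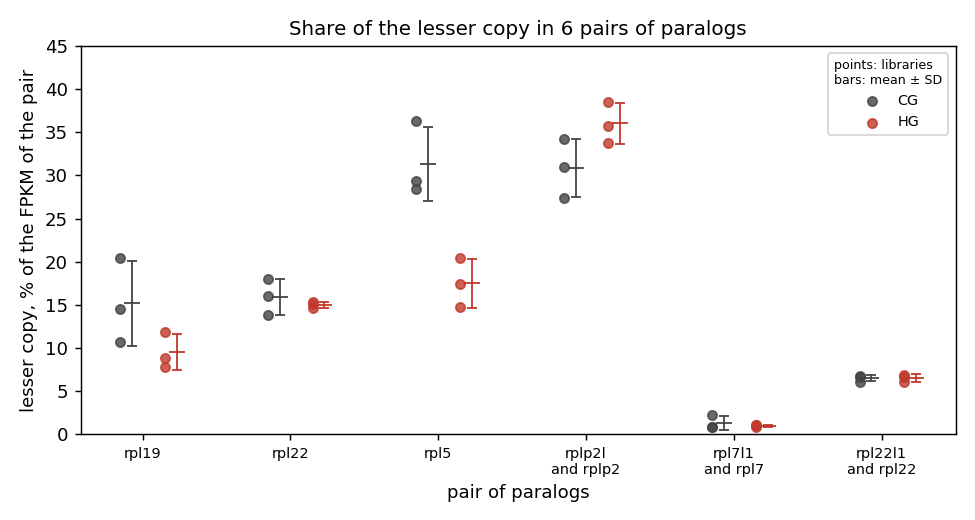
Share of the lesser copy in the summed FPKM of 6 pairs of paralogs, by library (grey for CG, red for HG), with the mean and SD of each group beside the points. The RPL5 pair is the one without overlap between the groups, at 28.4% to 36.3% in CG and 14.7% to 20.4% in HG. No pair can go below an exact permutation p of 0.1.

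The 3 annotated loci that are not ribosomal proteins by name are kept apart from the counts above. ENSONIG00000018627 (MSTRG.11156), which carries gene ontology terms of TGF-beta signaling and none of the ribosome, was the only 1 of the 81 loci that passed the test. It had 2.85, 2.47 and 2.58 FPKM in CG and 0.413, 1.12 and 0.483 FPKM in HG. Its log2 fold change was -1.14 (standard error 0.24, adjusted p = 0.0207, limma). Its mean was 2.63 FPKM in CG and 0.673 FPKM in HG, so it reached the minimum mean of 1 FPKM only through CG. With no minimum it was not called (adjusted p = 0.0525, limma). The call was lost in 9 of 17 alternatives, among them each that left out CG-1 (adjusted p = 0.0567), CG-2 (0.0531), CG-3 (0.0533), HG-1 (0.0667) or HG-3 (0.0601), and the adjusted p ran from 0.0184 to 0.125. arl6ip1, which encodes a membrane protein of the endoplasmic reticulum, had 41.6, 26.2 and 38.3 FPKM in CG and 53.1, 51.2 and 44.5 FPKM in HG, without overlap but with an adjusted p of 0.191 (log2 fold change 0.50). rsl24d1, a factor that helps to assemble the large subunit, had 169, 158 and 129 FPKM in CG and 157, 129.6 and 112 FPKM in HG (log2 fold change -0.20, adjusted p = 0.567). It shares its KEGG orthology entry with rpl24, as rpl7l1 does with rpl7, and was set apart by its symbol only.

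The 4 annotated loci under the minimum were RPL3L, at a mean of 0.147 FPKM, a paralog of rpl3 known in mammals from heart and skeletal muscle, a further RPS19 locus (MSTRG.15290) listed at 0.261 FPKM in CG-3 and at 0 in the other 5 libraries, RNF207 at 0.243 FPKM, and ENSONIG00000018699 at 0.727 FPKM. RNF207 is not a ribosomal protein by name. In the RefSeq annotation of the assembly O_niloticus_UMD_NMBU, rnf207a lies next to rpl22.

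The mitochondrial ribosomal proteins, which the KEGG annotation leaves out, gave a comparison. Of 69 loci with mrpl or mrps symbols 66 were tested, and 0 were called higher and 5 lower (7.58%), under the 20.4% of all loci. Their median log2 fold change was -0.23, with 50 of 66 below 0, and their groups did not overlap for 27 (40.9%). Over all tested loci the median was -0.14 and 43.5% did not overlap. With the mitochondrial translation factors below counted in, the median was -0.19, and it was -0.02 with libraries rescaled by the median of ratios. Their levels were low, with a median mean of 5.65 FPKM and a sum of 539 ± 72.9 FPKM in CG and 461 ± 79.0 FPKM in HG (SD, n = 3). Called lower were mrpl44, with 7.32, 9.24 and 6.65 FPKM in CG and 2.86, 3.13 and 5.03 FPKM in HG (log2 fold change -0.92, adjusted p = 0.0409, limma), mrpl1 (log2 fold change -0.90), mrpl52 (-0.85), mrps23 (-0.70) and mrps36 (-0.70), the last of which is also known in mammals as a subunit of the 2-oxoglutarate dehydrogenase complex. The 14 loci listed as mitochondrial translation factors also hold dap3, ptcd3, lrpprc and oxa1l, which are not factors in the strict sense. dap3 and ptcd3 encode proteins of the mitochondrial small subunit, but lack an mrps symbol and so are not among the 66. Their log2 fold changes were -0.52 for dap3 and -0.19 for ptcd3, and neither was called. Of these 14, gfm1, the mitochondrial elongation factor that moves the ribosome along the mRNA, was higher, with 2.72, 4.51 and 3.86 FPKM in CG and 16.0, 15.5 and 19.8 FPKM in HG (log2 fold change 1.96, standard error 0.23, adjusted p = 0.00306, limma). mtif2, the mitochondrial initiation factor, was lower, with 15.6, 16.1 and 13.1 FPKM in CG and 6.56, 5.16 and 9.89 FPKM in HG (log2 fold change -0.99, adjusted p = 0.0396). Over both lists 6 loci were called lower and 1 higher. With 1 library left out, the number called lower was 0 without CG-1, CG-2, HG-1 or HG-2, 1 without CG-3 and 3 without HG-3, and the number called higher was 1 each time. In these fits the lower calls over all tested loci fell too, from 1990 to between 804 and 1434.

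Proteins that work with the cytosolic ribosome were read from a list of 55 tested translation factors and ribosome-associated proteins, many of whose mRNAs share the pyrimidine tract in mammals. 5 were called higher and 3 lower, which is 14.5% of the list beside 20.4% of all tested loci (8.27% higher and 12.1% lower). The median log2 fold change was 0.19, beside -0.14 over all tested loci. eif4ebp3, which binds the cap-binding factor eIF4E, had 61.0, 39.4 and 58.9 FPKM in CG and 9.63, 13.4 and 12.7 FPKM in HG (log2 fold change -2.05, standard error 0.26, adjusted p = 0.00391, limma). eef2k, the kinase that inhibits elongation factor 2, had 64.6, 78.2 and 70.9 FPKM in CG and 19.3, 27.7 and 13.3 FPKM in HG (log2 fold change -1.83, standard error 0.29, adjusted p = 0.00835, limma). Other loci of the eIF4E-binding proteins did not pass, with log2 fold changes of 0.36 for eif4ebp1 and of -0.32 and -0.05 for the eif4ebp2 loci. eif4a2, an RNA helicase of initiation, was also lower (log2 fold change -1.29, adjusted p = 0.0462). Elongation factor 2 itself (EEF2), which moves the ribosome along the mRNA, was higher, with 373, 644 and 501 FPKM in CG and 1015, 920.2 and 1012 FPKM in HG (log2 fold change 0.99, adjusted p = 0.0322, limma). eif3f (0.89), a subunit of initiation factor 3, eef1da (0.92), of the exchange factor of elongation factor 1, a locus of the helicase eif4a1a (0.91) and the poly(A) binding protein pabpc4 (1.61) made up the other higher calls, each with its log2 fold change in brackets. The other eif4a1a locus (MSTRG.23655) was not called and had an estimate below 0 (log2 fold change -0.32, adjusted p = 0.598, limma).

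The number of higher calls on this list changed with the library left out. It was 1 without CG-1 and 1 without CG-3, 0 with HG-1, HG-2 or HG-3 left out, and 5 without CG-2. The number of lower calls on the list was 2 to 3 in these fits. Calls over all tested loci fell as well, from 1359 to between 784 and 970 higher and from 1990 to between 804 and 1434 lower. The highest locus of the list, which joins eef1a1l1 with a neighbouring gene (MSTRG.23028), had 1192, 1451 and 1122 FPKM in CG and 1735, 1657 and 1891 FPKM in HG, without overlap but not called (log2 fold change 0.50, adjusted p = 0.0987). gnb2l1 (RACK1), which sits on the small subunit, had 445, 667 and 510.4 FPKM in CG and 687, 493 and 808 FPKM in HG and a log2 fold change of 0.28 (adjusted p = 0.477). Its values were high in CG-2, HG-1 and HG-3, as those of the ribosomal proteins were. Both loci were named after their values were seen.

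**Figure D5:**
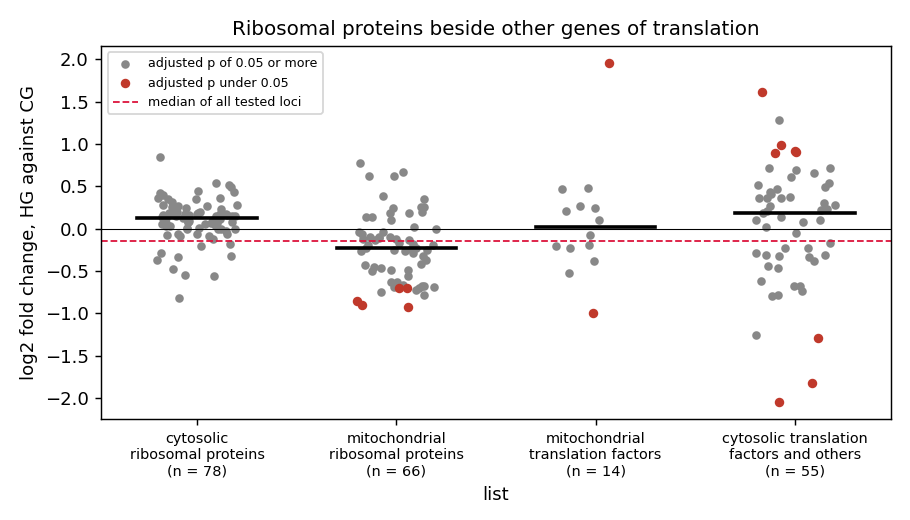
log2 fold change (HG against CG) of the 78 cytosolic ribosomal proteins, 66 mitochondrial ribosomal proteins, 14 loci listed as mitochondrial translation factors and 55 cytosolic translation factors and ribosome-associated proteins. Red points passed an adjusted p of 0.05 in limma, black bars are the medians (0.13, -0.23, 0.01 and 0.19) and the dashed line is the median of all tested loci. The cytosolic ribosomal proteins span -0.82 to 0.85 without a red point, and their median is -0.07 in the Ballgown-style model.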

How the data were processed

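Liver RNA of 3 CG and 3 HG libraries was sequenced. The authors aligned the reads with HISAT and assembled and quantified loci with StringTie, and the deposited table holds FPKM, which the authors scaled by transcript length and mapped fragments. Versions and the genome build are not given in the sources used here. Since no counts were used, log2(FPKM + 1) was fitted with limma 3.58.1 (R 4.3.3, eBayes with trend, group as the only term) on the 16423 of 31872 loci whose mean reached 1 FPKM, with two-sided p-values adjusted by Benjamini-Hochberg over all of them. A fold change on this scale understates the change of low loci. Summaries and figures were made in Python 3.11.15. The fits were tried on simulated data in which each locus varied independently. The members here moved together by library, so that trial does not cover them as a set.

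The members and lists were chosen with earlier results of these data known. Members named were those called, the extremes of fold change, level and spread, paralogs, stalk proteins and ubiquitin fusions, and called genes of the neighbouring lists. The values of 1 member are not reported here. Replicate numbers are shared by CG and HG, but same-numbered libraries did not deviate together (correlations -0.10 to 0.04 over 3 pairs) and no source says that a number marks a shared batch. Alternatives covered the pseudocount, the minimum, scaling, the model, a replicate block and each library left out.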

Additional observations from a re-analysis of the deposited data

How the results depend on the processing

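None of the 78 cytosolic ribosomal proteins was called under any of the 18 alternative fits, where the smallest adjusted p of a member ran from 0.0531 to 0.210. The 0.0531 came from scaling to the median of these same members, which sets their median near 0 by construction. Other fits came near it (limma). The smallest adjusted p was 0.0583 with quantile normalization, 0.0672 with a mean of at least 10 FPKM and 0.0769 by the median of ratios. The Ballgown-style model called only 2 of all 16423 loci, so it could hardly have called a member. The median log2 fold change of the members was 0.03 to 0.25 with each library left out in turn. It was -0.07 in the Ballgown-style model and 0.34 by the median of ratios or the upper quartile, so its sign and size varied with the fit. A replicate block left that median at 0.13 with 0 calls. Of the 81 members 80 were not called, and they stayed so in 1439 of 1439 alternatives. These fits use the same libraries and the members moved together, so the 1439 are not independent checks. Several of the fits also called fewer of all tested loci than the main fit, as given below. The call of ENSONIG00000018627 was lost in 9 of 17. The short lists depended on the setting, as did the calls over all tested loci. Over all loci, 1359 were called higher and 1990 lower in the main fit. This was 2 and 0 in the Ballgown-style model, 867 and 1093 with the replicate block, and 1817 and 1595 by the median of ratios. With a mean of at least 10 FPKM it was 634 and 770 of 3319 loci, and with no minimum 955 and 1327 of 31872. Without each library in turn, 784 to 970 of all loci were called higher and 804 to 1434 lower. Of the 55 translation factors, 5 were higher and 3 lower in the main fit, with a median of 0.19. In the Ballgown-style model 0 were higher and 0 lower. They were 3 higher with no minimum, 0 higher with the replicate block and 1 higher at a minimum of 2-fold. With a mean of at least 10 FPKM, 42 of the 55 were tested and 5 were lower. Their median was 0.40 with libraries rescaled by the median of ratios or by the upper quartile. Without each library in turn 0 to 5 were higher. The mitochondrial lists together held 80 loci, with 1 higher and 6 lower in the main fit. In the Ballgown-style model 0 were higher and 0 lower. They were 2 lower with no minimum, 0 lower with the replicate block and 0 lower at a minimum of 2-fold. Only 21 of the 80 loci had a mean of at least 10 FPKM, and 2 of these were lower in that fit. Of those lower in the main fit, mrpl44, mrpl1, mrpl52 and mrps23 were under that mean and so could not be called there. The lists were 4 higher and 2 lower by the median of ratios, and 3 higher and 2 lower by the upper quartile and by quantile normalization. Without each library in turn 0 to 3 were lower. The cause of these changes was not tested. With 3 libraries a group and FPKM in place of counts, counting error cannot be separated from the spread between libraries.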

Other observations

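The summed FPKM of all loci other than the cytosolic ribosomal proteins was 419877, 421377 and 426477 in CG and 406170, 406707 and 403559 in HG. The groups did not overlap, and the sum was 422577 ± 3460 in CG and 405479 ± 1684 in HG (SD, n = 3). The summed FPKM of all loci, ribosomal proteins included, did overlap, at 474946, 493870 and 481869 in CG and 474901, 459912 and 475226 in HG. These sums were looked at after the ribosomal protein values were seen. FPKM is scaled by transcript length, so such a sum is not an amount of mRNA, and abundant loci weigh most in it. The 12 hepatocyte markers alone summed to 32318 to 43560 FPKM in CG and 23150 to 28666 FPKM in HG. Their part in the difference was not tested.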
